A study of Homo sapiens with 24 samples.

Results

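Of the 6236 peaks called in 6 lists of MYC-tag chromatin immunoprecipitation followed by sequencing (ChIP-seq), 286 lay on chromosomes 4, 13 and 18, chosen by the chromosome named in each list. Chromosome 4 held 143 of them, chromosome 13 held 79 and chromosome 18 held 64. The cells were PC9, established from a human lung adenocarcinoma and dependent on a mutant EGFR kinase, and PC9-OR, an osimertinib-resistant form of PC9 grown in 1 uM osimertinib, an inhibitor of EGFR. The 2 PC9 groups were wild type and cells overexpressing METTL7A, a methyltransferase-like protein, fused to MYC-tag and FLAG. The 4 PC9-OR groups were wild type, cells with the empty MYC-tag-FLAG vector, cells with the same tagged METTL7A, and cells with its K86A form. Each of these 6 groups had 2 immunoprecipitated libraries, and each had 2 input libraries that are not analysed here, 24 in all. Wild-type cells carry no tagged protein and serve as the untagged background. All groups come from PC9, and the sources used here do not say whether a line was 1 clone or a pool.

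The lists hold 10 runs of peak calling placed one after another. They were told apart by the peak names and by where the numbering restarts, and are numbered here in the order of the list. The group of a run was taken from the name of its list. Peaks of the second PC9-OR METTL7A run are named OR_FLAG_MYC, a name without METTL7A, so its group rests on the list name alone. That a run stands for 1 replicate library is an inference, and where runs are compared the p-values measure only the spread between runs. The runs differed widely in length. The first PC9 wild-type run held 1143 peaks, the second PC9-OR METTL7A run held 4870, and the other 8 held between 1 and 83. The wild-type, empty-vector and METTL7A groups of PC9-OR and the wild-type group of PC9 each held 2 runs, whereas PC9 METTL7A and K86A each held 1.

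Human chromosomes are unevenly filled with genes, and long stretches without genes tend to be compact, late-replicating and dark in Giemsa staining. The pale bands, called G-negative, and the bands next to many chromosome ends are known to be richer in genes and in guanine and cytosine. Chromosomes 13 and 18 are the autosomes whose extra copies are best tolerated after that of chromosome 21, a fact usually linked to their low gene content.

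The description of these chromosomes as poor in genes was checked against the RefSeq gene table, which is on GRCh38.p14 and was used only to count protein-coding genes per chromosome over the GRCh37 chromosome lengths. Chromosome 13 had the fewest genes for its length of the 22 autosomes, 338 genes or 2.93 per Mb. Chromosome 18 came next with 270 genes or 3.46 per Mb, and chromosome 4 was the third with 769 genes or 4.02 per Mb. The gene counts thus bear out the name for each chromosome. Together they carry 1377 protein-coding genes, 3.58 per Mb, against 7.11 per Mb on the other 19 autosomes. Their 384 Mb make up 13.3% of the length of the autosomes.

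Most peaks on these chromosomes came from 2 of the 10 runs. The second PC9-OR METTL7A run held 156, of which 69 lay on chromosome 4, 45 on chromosome 13 and 42 on chromosome 18. The first PC9 wild-type run held 117, with 67, 30 and 20 on the same chromosomes. A run from METTL7A cells and a run from cells without the tag were therefore the main sources. The other runs held 13 in all. These were 4 in the second PC9 wild-type run, 4 in the PC9 METTL7A run, 3 in the first run of PC9-OR wild type and 2 in the first of PC9-OR METTL7A. The second PC9-OR wild-type run, both empty-vector runs and the K86A run held 0. Over 384 Mb a count of 0 allows a density of up to 0.00780 peaks per Mb by a limit of 3 counts. The exact 95% Poisson interval reaches 0.00960. Those 4 runs held 1, 5, 1 and 1 peaks in the whole genome, so their 0 here says little.

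The chromosomes held fewer peaks per Mb than the other autosomes in each of the 5 runs with at least 20 autosomal peaks. In the second PC9-OR METTL7A run there were 0.406 peaks per Mb, with an exact 95% Poisson interval of 0.345 to 0.475, and 1.86 per Mb on the other autosomes. That is 1 peak in 2.46 Mb against 1 in 0.538 Mb. By chromosome the density in this run was 0.361 per Mb on chromosome 4, 0.391 on chromosome 13 and 0.538 on chromosome 18. Chromosome 4 was the sparsest autosome of this run, and chromosomes 13 and 18 ranked 3 and 4 from the bottom, after chromosome 21 with 0.374 per Mb. The intervals of these 4 chromosomes overlap, so their order among themselves is not resolved. The first PC9 wild-type run had a density of 0.304 per Mb (0.252 to 0.365) against 0.390 on the other autosomes. Here chromosome 4 had 0.351 per Mb, chromosome 13 had 0.260 and chromosome 18 had 0.256. Chromosome 18 ranked 4 and chromosome 13 ranked 5 from the sparsest, but chromosome 4 ranked 11 of 22 and was thus in the middle of the autosomes. Sparser still were chromosomes 21, 22 and 19, at 0.125, 0.234 and 0.237 per Mb, and chromosome 19 has the most genes per Mb. The intervals of chromosome 18 (0.156 to 0.396) and chromosome 4 (0.272 to 0.445) include the 0.390 of the other autosomes. That of chromosome 13 (0.176 to 0.372) does not. All these intervals, and those below, cover counting error only.

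**Figure D1:**
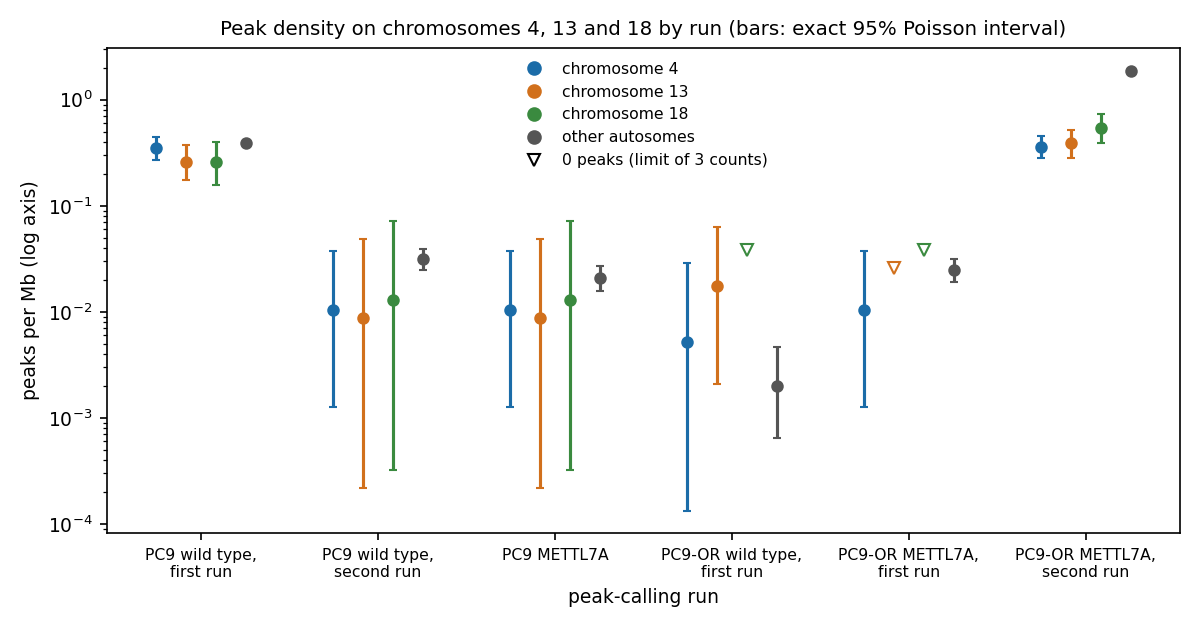
Peaks per Mb (log axis) on chromosomes 4, 13 and 18 and on the other autosomes in the 6 runs that hold any peak there; points are densities, bars exact 95% Poisson intervals, and open triangles the limit of 3 counts where a chromosome held 0. In the second PC9-OR METTL7A run the 3 chromosomes lie between 0.361 and 0.538 per Mb, below the 1.86 of the other autosomes, whereas in the first PC9 wild-type run they lie between 0.256 and 0.351 against 0.390.

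As a share of the autosomal peaks, the 3 chromosomes took 3.25% of the second PC9-OR METTL7A run (exact 95% binomial interval 2.77 to 3.79%). They took 10.7% of the first PC9 wild-type run (8.96 to 12.7%). Both lie below the 13.3% of the length, the wild-type run by far less. The shorter runs gave wide intervals. The share was 4.88% in the second PC9 wild-type run (1.34 to 12%), 7.14% in PC9 METTL7A (1.98 to 17.3%) and 3.12% in the first PC9-OR METTL7A run (0.381 to 10.8%). The PC9 METTL7A interval includes the length share, so a shortage was not detectable there at this depth. A different picture came from the first run of untagged PC9-OR, with 3 of its 8 autosomal peaks on these chromosomes, or 37.5% (8.52 to 75.5%), an interval that also includes the length share.

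The question whether the low density was shared by runs was put to the 5 runs with at least 20 autosomal peaks. The density on the 3 chromosomes was 0.781 times that on the other autosomes in the first PC9 wild-type run (0.639 to 0.947). In the second PC9 wild-type run it was 0.333 times (0.0885 to 0.887), and in PC9 METTL7A it was 0.5 times (0.131 to 1.36). The first and second PC9-OR METTL7A runs gave 0.210 times (0.0248 to 0.789) and 0.218 times (0.185 to 0.256). Every run lay below 1, and the 2 resistant METTL7A runs lay lowest. The mean log2 ratio was -1.48 (SD 0.81, n = 5 runs), which is 0.359-fold. The two-sided exact sign-flip permutation p was 0.0625, the smallest 5 runs can give, so the test could not pass 0.05. The chromosomes were picked with results of these runs known, and this p is not independent evidence.

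Each chromosome was then set beside the autosome nearest to it in length. For chromosome 4 against chromosome 3, the mean log2 ratio of densities was -1.26 (SD 0.59, n = 5 runs), below 0 in 5 of 5, with a two-sided exact sign-flip permutation p of 0.0625 and 0.0938 after Benjamini-Hochberg adjustment over 3 pairs. Chromosome 4 had 0.272 times the density of chromosome 3 in the second PC9-OR METTL7A run and 0.738 times in the first PC9 wild-type run. In that wild-type run chromosome 3 ranked 18 from the sparsest, where chromosome 4 ranked 11. For chromosome 13 against chromosome 14, which share the short-armed acrocentric shape, the mean was -0.57 (SD 0.59, n = 5 runs), with an exact permutation p of 0.0625 and 0.0938 after adjustment. The long runs gave 0.403 times and 0.847 times. For chromosome 18 against chromosome 17, one of the autosomes richest in genes, the mean was -0.98 (SD 1.06, n = 5 runs), with an exact permutation p of 0.25 and 0.25 after adjustment. The long runs gave 0.224 times and 0.533 times, but only 3 of the 5 runs lay below 0. The first PC9-OR METTL7A run held 0 peaks on chromosomes 13, 14, 17 and 18, and the PC9 METTL7A run held 1 on each. Their ratios for the last pairs thus reflect chromosome length alone, and they are the runs not below 0 for chromosome 18. Without the first PC9-OR METTL7A run the means were -0.69 (exact permutation p 0.125, n = 4 runs) and -1.24 (exact permutation p 0.25, n = 4 runs). Among peaks with at least 5 fragments the mean of the chromosome 13 pair was -0.28 (exact permutation p 0.75, n = 4 runs).

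The METTL7A runs were compared with the untagged runs on the same log2 density ratio. The 3 METTL7A runs lay 0.85 lower on average (a difference of -0.85 on the log2 scale), and a two-sided exact permutation test gave p = 0.3 where 0.1 is the smallest possible. The difference did not exceed the spread between runs. It rests on single runs, being -0.23 without the first PC9 wild-type run and -1.46 without the second. Among peaks with at least 5 fragments it was -0.11 (exact permutation p 1, n = 4 runs).

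The counts per run were then compared between groups. In PC9-OR the METTL7A runs held 2 and 156 peaks on these chromosomes, and the wild-type and empty-vector runs held 3, 0, 0 and 0. The groups overlap: the first METTL7A run held 2 and the first wild-type run 3. On the log2(count + 0.5) scale the METTL7A mean was higher by 4.60, and a two-sided exact permutation test gave p = 0.133 where 0.0667 is the smallest possible. Without the second METTL7A run the difference was 1.62, and without the first it was 7.59. Among peaks with at least 5 fragments, which leaves out the 3 wild-type peaks, it was 5.15 with an exact permutation p of 0.0667, the smallest possible. At a −log10 q of at least 5 it was 1.58 (exact permutation p 0.333). In PC9 the METTL7A run held 4 peaks, and the wild-type runs held 117 and 4. On the same scale METTL7A minus wild type was -2.35, and a two-sided exact permutation test gave p = 1 where 0.333 is the smallest possible. It rests on the first wild-type run, without which it was 0. Over all autosomes the PC9-OR METTL7A runs held 64 and 4800 peaks, and the wild-type and empty-vector runs 8, 1, 5 and 0. The PC9 METTL7A run held 56 over all autosomes, and the PC9 wild-type runs 1090 and 82. Neither count difference was therefore particular to these chromosomes. No K86A peak lay on these chromosomes, so nothing can be said of that form here.

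The gap was also present per gene in the second PC9-OR METTL7A run, but not in the first PC9 wild-type run. The wild-type run held 117 peaks for the 1377 genes here and 973 for the 17745 genes on the other autosomes. It thus had more peaks per gene on the 3 chromosomes. Per 100 protein-coding genes, the second PC9-OR METTL7A run had 11.3 peaks on the 3 chromosomes together and 26.2 on the other autosomes. Chromosome 4 had 8.97 peaks per 100 genes, chromosome 13 had 13.3 and chromosome 18 had 15.6. Part of the 26.2 comes from chromosomes 20 and 22, with 107 and 74.5 peaks per 100 genes. Other autosomes were as low as the 3 chromosomes by this measure, with 7.53 on chromosome 21, 10.4 on chromosome 6 and 11.7 on chromosome 19.

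**Figure D2:**
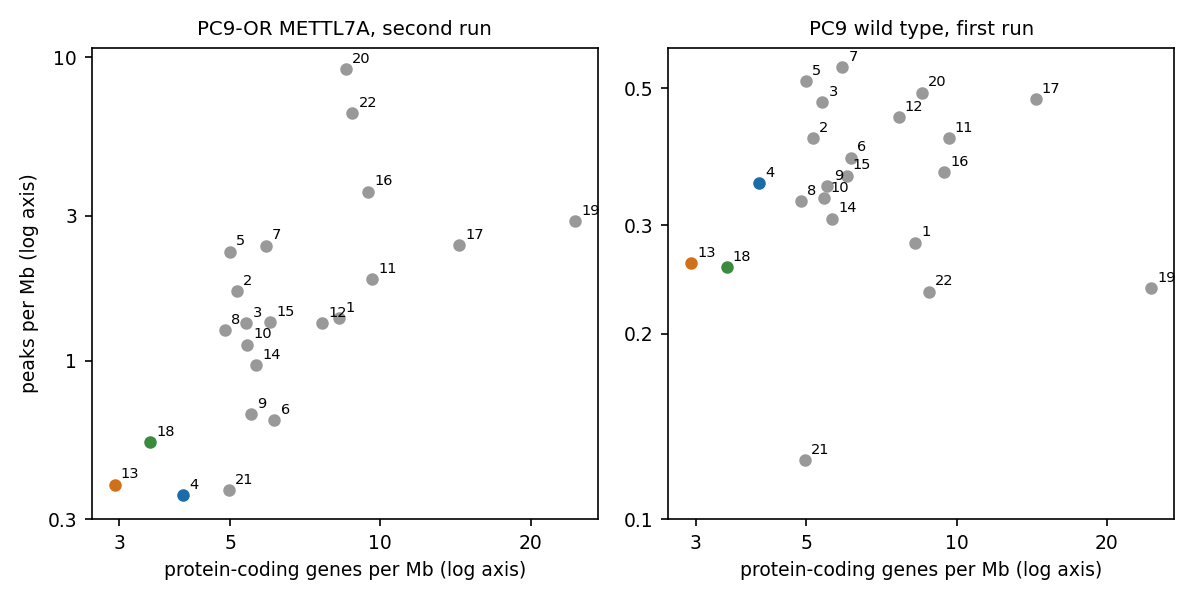
Protein-coding genes per Mb (RefSeq on GRCh38.p14, log axis) against peaks per Mb (log axis) for the 22 autosomes, each point a chromosome, in the second PC9-OR METTL7A run (left) and the first PC9 wild-type run (right); chromosomes 4, 13 and 18 are coloured. On the left they sit at the lower left corner together with chromosome 21, and on the right chromosome 4 sits in the middle of the range.

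On the chromosomes themselves the peaks of the second PC9-OR METTL7A run gathered near the ends. Of the 156 peaks, 71 lay within 5 Mb of an end, 45.5% (exact 95% binomial interval 37.5 to 53.7%) on 7.80% of the length. Over all autosomes 33% of the peaks of this run lay that near an end, and over the other autosomes 32.5% (31.2 to 33.9%) on 7.61% of the length. The 3 chromosomes were not alike. Chromosome 4 had 14 of 69 peaks in its outer 5 Mb, 20.3% (11.6 to 31.7%) on 5.23% of its length. Chromosome 13 had 26 of 45, 57.8% on 8.68% of its length, and chromosome 18 had 31 of 42, 73.8% on 12.8%. The outer share of peaks was 3.88, 6.65 and 5.76 times that of length on chromosomes 4, 13 and 18. On the other autosomes it was 4.28 times. The chromosomes of like length had 3.8% on chromosome 3, 29.8% on chromosome 14 and 20.0% on chromosome 17. Each of the 3 thus had a larger outer share than its partner in this run, by counts of 1 run and with no test. For chromosome 4 this depends on the partner, since chromosome 3 had 0.753 times its length share there. Against the other autosomes together chromosome 4 had the lower outer share, and chromosomes 13 and 18 the higher.

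Density was lower farther from the end on both sets of chromosomes. In the first 2 Mb the 3 chromosomes had 3.92 peaks per Mb in the second PC9-OR METTL7A run, and the other autosomes 9.25. From 2 to 5 Mb the values were 1.33 and 7.09, and from 5 to 10 Mb they were 0.667 and 2.27. Beyond 40 Mb they were 0.164 and 0.997. The 3 chromosomes were thus sparser in each bin, the end bins included. The values of the first PC9 wild-type run did not fall steadily with distance. There the 3 chromosomes had 0.250 per Mb in the first 2 Mb, a value that rests on 3 peaks, and 0.226 beyond 40 Mb. The other autosomes had 0.289 and 0.387. Between these, the 3 chromosomes had 0.5 per Mb from 2 to 5 Mb, on 9 peaks, and 0.4 from 5 to 10 Mb, on 12 peaks, against 0.281 and 0.389 on the other autosomes. Of the 117 peaks of that run, 12 lay within 5 Mb of an end, 10.3% (5.41 to 17.2%), beside 6.06% of all its autosomal peaks.

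**Figure D3:**
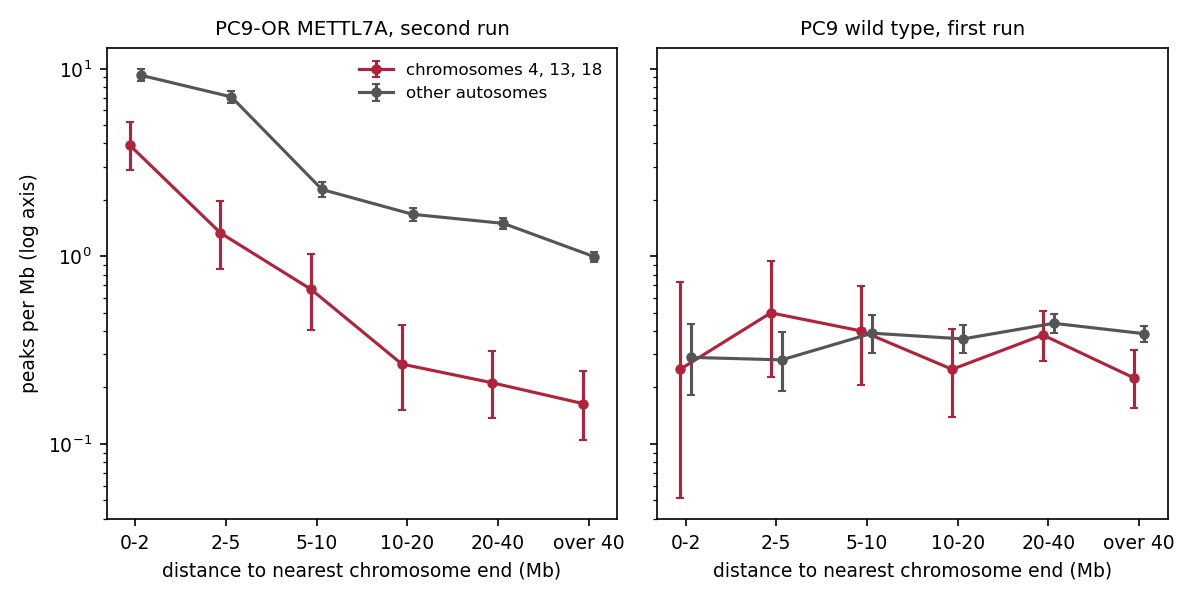
Peaks per Mb (log axis) by distance to the nearest chromosome end in Mb, for chromosomes 4, 13 and 18 together and for the other autosomes, in the second PC9-OR METTL7A run (left) and the first PC9 wild-type run (right); points are densities and bars exact 95% Poisson intervals. On the left the density of the 3 chromosomes falls from 3.92 to 0.164 per Mb and stays under the other autosomes throughout, and on the right it lies between 0.226 and 0.5 per Mb with no such fall.

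The ends differed among themselves. The last 5 Mb of 18q held 29 peaks of the second PC9-OR METTL7A run and the last 5 Mb of 13q held 26, 5.80 and 5.20 per Mb. These are above the median of the 39 autosome ends compared, 4.2 per Mb, and ranked 14 and 15 from the fullest. The first 5 Mb of 4p held 9, the last 5 Mb of 4q held 5, and the first 5 Mb of 18p held 2, with ranks of 29, 31 and 34. The long-arm ends of 13 and 18 were therefore filled like a typical autosome end, and the other ends were sparse. Away from the ends the chromosomes were close to the bottom. Without the outer 5 Mb the density was 0.162 per Mb on chromosome 18, 0.181 on chromosome 13 and 0.304 on chromosome 4, ranks 2, 3 and 4 from the sparsest, after chromosome 21 with 0.157. The inner part of the 3 chromosomes together had 0.240 per Mb against 1.36 on the other autosomes.

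By arm, 4p carried more than its length. It held 34 of the 69 chromosome 4 peaks of the second PC9-OR METTL7A run, 49.3% on 26.4% of the length, or 0.675 per Mb against 0.249 on 4q. On chromosome 18 the long arm led, with 36 of 42 peaks, 85.7% on 78.0% of the length, or 0.591 per Mb against 0.349 on 18p. That lead rests on band 18q23, which held 29 of the 36. Outside this band the chromosome, 18p included, had 0.178 per Mb, so the rest of 18q was sparser than 18p. All 45 peaks of chromosome 13 lay on 13q. No run held a peak on 13p, which is known to consist of repeats and ribosomal genes. Whether reads can be placed on 13p in this build was not examined, so its 0 is not a result about the arm. Its 17.9 Mb are counted in the length of chromosome 13 used for densities and shares. The wild-type values were 24 of 67 peaks on 4p, 35.8%, and 9 of 20 on 18p, 45% on 22% of the length, in the first PC9 run. None of these arm shares was tested.

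The pale bands carried most peaks. Of the 156 peaks of the second PC9-OR METTL7A run, 117 lay in G-negative bands, 75% (67.4 to 81.6%) on 41.5% of the length, a density of 0.734 per Mb. The darkest bands, those graded 75 or 100, held 22, 14.1% on 34.5% of the length, or 0.166 per Mb. The other autosomes had 68.6% of their peaks in G-negative bands at 3 per Mb, so even the pale bands of the 3 chromosomes were sparser. With the outer 5 Mb left out, G-negative bands held 60% of the remaining peaks on the 3 chromosomes and 60.7% on the other autosomes, at 0.361 per Mb against 2.05. For the first PC9 wild-type run G-negative bands held 52.1% (42.7 to 61.5%), at 0.383 per Mb against 0.264 in the darkest bands. The other autosomes of that run had 44.2% in G-negative bands on 42.5% of the length. Their G-negative bands held 0.405 per Mb and their darkest bands 0.441, so they showed no such lean. On the 3 chromosomes the lean towards pale bands was smaller in that run than in the METTL7A run, a difference that was not tested.

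A pair of bands at the end of long arms held 55 of the 156 peaks of the second PC9-OR METTL7A run. Band 18q23 (chr18:73100001-78077248, GRCh37), G-negative, held 29 peaks in 4.98 Mb, 5.83 per Mb, which is 69.0% of the chromosome's peaks on 6.37% of its length. The other 13 peaks of chromosome 18 were spread at 0.178 per Mb. Band 13q34 (chr13:110300001-115169878), G-negative, held 26 peaks in 4.87 Mb, 5.34 per Mb, which is 57.8% of the chromosome's peaks on 4.23% of its length. The other 19 lay at 0.172 per Mb. Among 811 autosomal bands these ranked 54 and 59 by density in this run, so many bands elsewhere were fuller. The first PC9 wild-type run held 1 peak in 18q23 and 5 in 13q34, and the PC9 METTL7A run held 1 in each. Within 18q23, the window chr18:77000001-78000000 alone held 18 peaks and chr18:74000001-75000000 held 7. Within 13q34, chr13:113000001-114000000 held 10 and chr13:114000001-115000000 held 9. No 1 Mb window of chromosome 4 held more than 4.

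The peaks in both bands were close in width and fragments to those elsewhere on the same chromosome. In 13q34 they were 314 to 891 bp wide (median 390.5 bp) and had 4 to 7 recovered fragments at the summit (median 5), beside medians of 368 bp and 5 fragments on the rest of chromosome 13. In 18q23 they were 316 to 720 bp wide (median 380 bp), also with 4 to 7 fragments (median 5), beside 370 bp and 4 fragments on the rest of chromosome 18. The fragment number and the local background of each summit were worked out together from the fold and p-value in the deposited lists. The most common background of a run, called its floor, was 0.341 fragments in this run. In 13q34, 23 of 26 peaks stood on the floor, and in 18q23, 26 of 29. That is 49 of 55, beside 80.1% of all 156 peaks and 57.8% of those on the other autosomes.

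On chromosome 4 the peaks were spread over more bands. The fullest were 4p16.3 (chr4:1-4500000) with 9 peaks, 2 per Mb, 4p16.1 (chr4:6000001-11300000) with 10 peaks, 1.89 per Mb, and 4q35.1 (chr4:183200001-187100000) with 7 peaks, 1.79 per Mb. All are G-negative. They held 0, 3 and 4 peaks of the first PC9 wild-type run. Next in density on chromosome 13 were 13q14.12 (chr13:45200001-45800000) with 1 peak and 13q14.13 (chr13:45800001-47300000) with 2. On chromosome 18 they were 18p11.23 (chr18:7100001-8500000) and 18q22.2 (chr18:66800001-68700000) with 1 each. The median band held 1 peak on chromosome 4, 0 on chromosome 13 and 1 on chromosome 18, so most bands were nearly empty. Of the 103 bands of the 3 chromosomes 54 held a peak of the second PC9-OR METTL7A run. At least 1 peak of the first PC9 wild-type run lay in 60 of them, although that run had fewer peaks.

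**Figure D4:**
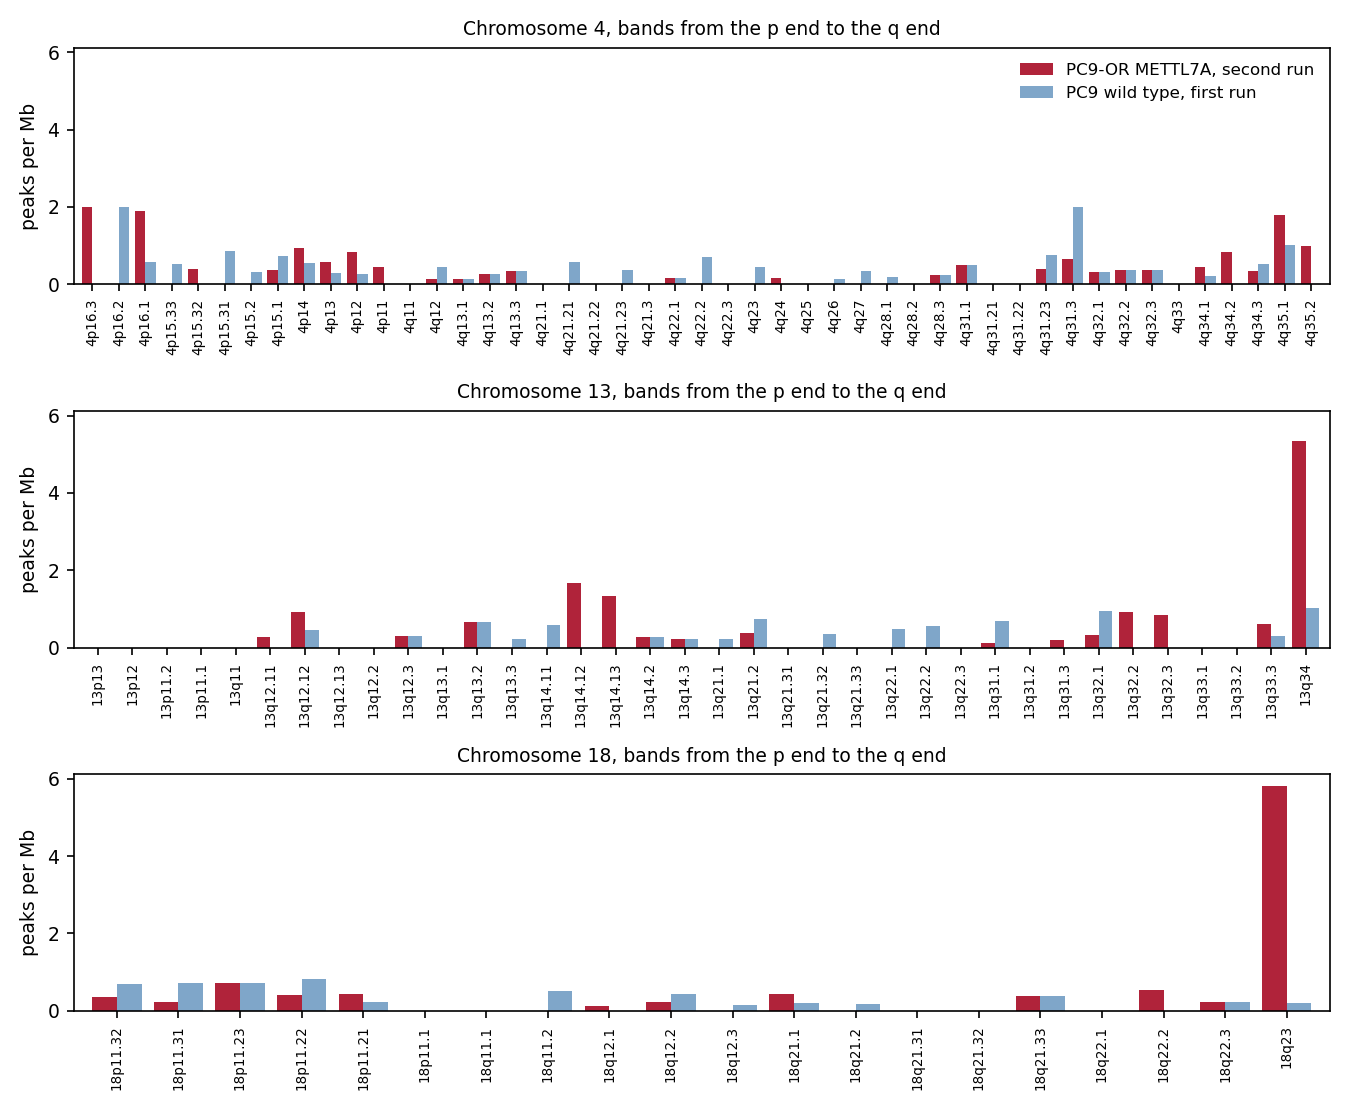
Peaks per Mb in each cytogenetic band of chromosomes 4, 13 and 18, in order from the short-arm end to the long-arm end, for the second PC9-OR METTL7A run (red) and the first PC9 wild-type run (blue); bars are counts divided by band length in 1 run each. Bands 13q34 and 18q23 stand at 5.34 and 5.83 per Mb in the METTL7A run, and no band of the wild-type run passes 2.

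The spacing between neighbours showed the same contrast. For the second PC9-OR METTL7A run the median distance to the nearest peak was 243 kb on the 3 chromosomes and 18.9 kb on the other autosomes. It was 657 kb on chromosome 4, 134 kb on chromosome 13 and 44.6 kb on chromosome 18, where most peaks sit in 18q23. Medians of the first PC9 wild-type run were 801 and 773 kb, with no gap between the sets of that size. Of the 156 METTL7A peaks, 14 had a neighbour within 10 kb, 8.97%, against 40.8% elsewhere. A peak fell in 89 of the 387 windows of 1 Mb, 23%, against 42.2% elsewhere. In the wild-type run a peak fell in 93 of the 387, 24% of them, against 31% elsewhere. The 2 runs thus touched a like number of windows here, and the METTL7A run put up to 18 peaks in 1 of them where the wild-type run put at most 4. The longest stretches without a METTL7A peak were chr4:105885352-131886347, chr13:60738138-85928537 and chr18:14149827-32073674, of 26.0, 25.2 and 17.9 Mb.

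Median peak widths on these chromosomes were close to those elsewhere in both long runs. The 156 of the second PC9-OR METTL7A run were 314 to 1055 bp wide, with a median of 385.5 bp against 400 bp on the other autosomes. The 117 of the first PC9 wild-type run were 231 to 496 bp wide, with a median of 289 bp against 284 bp. The log2 ratios of the medians were -0.05 and 0.03, and their mean of -0.01 had a two-sided exact permutation p of 1 where 0.5 is the smallest 2 runs can give. Of the METTL7A run's peaks, 1 was over 1 kb here, 0.641%, and 208 on the other autosomes, 4.48%, where the widest was 3769 bp. Chromosome 14 held 0 of its 104 over 1 kb, the widest being 951 bp.

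Fragment numbers were low. Summits of the second PC9-OR METTL7A run held 4 to 14 fragments, with a median of 5 against 6 on the other autosomes. Of the 156 peaks, 31 had 4 fragments and 53 had 5. At least 5 fragments were found in 125, 80.1%, beside 88% of all autosomal peaks of the run. At least 10 fragments were found in 2, 1.28%, against 10.1% on the other autosomes. Chromosomes 14 and 17 also lay below 10.1%, at 4.81% and 3.59%, whereas chromosome 3 had 31.9%. The median was 6 on chromosome 4, as on the other autosomes, and 5 on chromosome 17. Low fragment numbers were therefore not particular to the 3 chromosomes. Of the 117 peaks of the first PC9 wild-type run, 108 rested on 2 fragments, 8 on 3 and 1 on 4, and the median was 2 on both sets of chromosomes. A summit of 2 fragments was also the lowest on the other autosomes of that run, whose floor was 0.0131 fragments. The log2 ratios of the medians were -0.26 and 0, and their mean of -0.13 had a two-sided exact permutation p of 1, again with 0.5 the smallest possible.

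**Figure D5:**
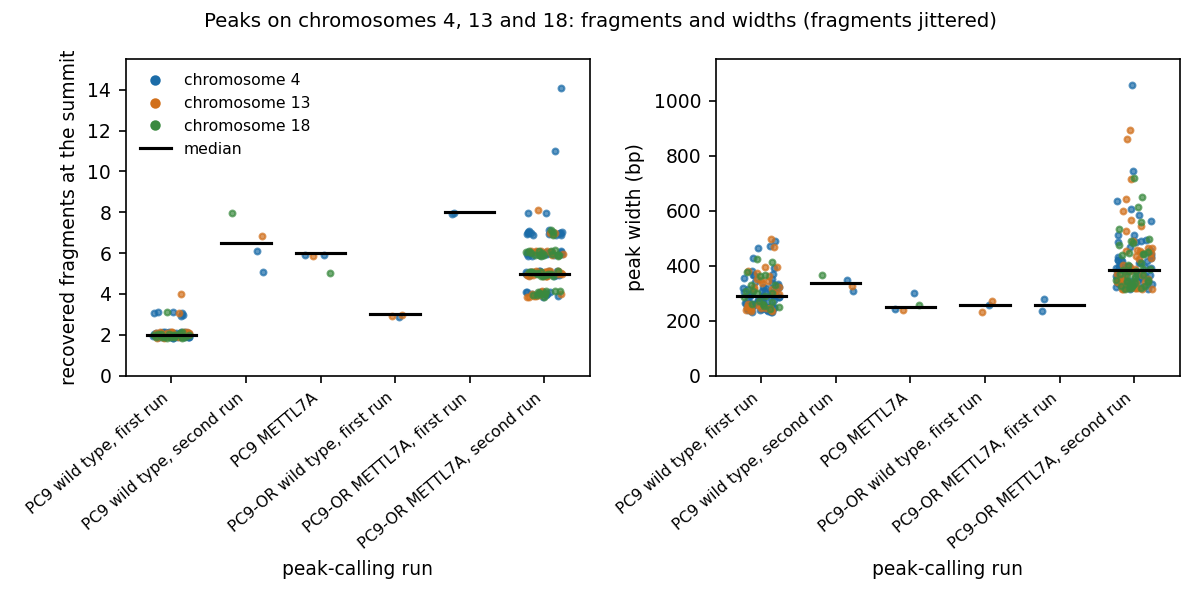
Recovered fragments at the summit (left, points jittered) and peak width in bp (right) for every peak on chromosomes 4, 13 and 18 in the 6 runs that hold any; each point is a peak, coloured by chromosome, and bars are medians. The first PC9 wild-type run lies at 2 to 4 fragments and the second PC9-OR METTL7A run at 4 to 14, with medians of 289 and 385.5 bp in width.

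Strong calls were few here. A deposited −log10 q of at least 5 was reached by 4 of the 156 peaks, 2.56%, beside 8.85% of all autosomal peaks of the run. The share was 4.35% on chromosome 4 alone and 3.85% on chromosome 14, so a low share was not particular to the 3 chromosomes. The deposited fold ran from 3.62 to 10.2, with a median of 4.47 against 4.66 elsewhere, where it reached 18.9, and 8.95 on chromosome 14. The local background was also even. It stood at the floor in 125 of the 156 peaks, 80.1%, against 57.8% on the other autosomes. Above 2 floors it stood in 12 of the 156, against 830 of 4644 on the other autosomes, 17.9%. At the floor stood 53.8% of the peaks of the first PC9 wild-type run here, against 37% on its other autosomes. The part of local background in the number of peaks called was not tested.

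The 4 strong peaks lay at single places. The highest fold, 10.2 from 14 fragments (−log10 q 11.8), belonged to chr4:49318164-49318598 in 4p11, inside the centromere band, where satellite repeats are found. The other 3 were chr4:131886348-131886832 in 4q28.3, chr4:188710552-188711036 in 4q35.2 and chr13:49031560-49032418 in 13q14.2, each with 8 fragments, a fold of 6.71 and 5.23 as −log10 q. Equal values follow from equal fragment numbers on the floor background. The peak in 13q14.2, the band of the cell cycle repressor RB1, was 859 bp wide, and the first PC9 wild-type run also held 1 peak in that band. The widest peak, chr4:153896194-153897248 in 4q31.3, spanned 1055 bp with a fold of 5.22 and 6 fragments. A peak at chr4:38326491-38326885 in 4p14 had 11 fragments, but on a background of 6.52 floors, so its fold was 3.72.

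Below these, many peaks of each chromosome tied on a fold with 6 or 7 fragments, and those named are the first of each tie by position. On chromosome 4 a fold of 5.97, with 7 fragments, was shared by 7 peaks, of which 3 lay in 4q35.1. The first were chr4:3583258-3583656 in 4p16.3 and chr4:8240071-8240527 in 4p16.1. On chromosome 13 a fold of 5.97 was found at chr13:113795845-113796185 and chr13:114310985-114311407, both in 13q34. The next fold, 5.22 with 6 fragments, was shared by 8 peaks, of which 5 lay in 13q34, and the first were chr13:23319071-23319524 in 13q12.12 and chr13:45492283-45492601 in 13q14.12. On chromosome 18 the fold of 5.97 belonged to chr18:67903631-67904039 in 18q22.2 and to chr18:74395983-74396423 and chr18:74826559-74826924 in 18q23. The fold of 5.22 was shared by 11 peaks, of which 9 lay in 18q23, and the first were chr18:10192332-10192780 in 18p11.22 and chr18:45555871-45556218 in 18q21.1. The highest of the first PC9 wild-type run was chr13:75057619-75057856 in 13q22.1, with a fold of 4.94 and 4 fragments. All others of that run here had a fold of at most 3.95, and chr13:113849144-113849504 in 13q34 and chr4:154691784-154692152 in 4q31.3 were among those with 3 fragments.

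Almost no position was shared between runs. Of the 156 peaks of the second PC9-OR METTL7A run, 1 overlapped a peak of another run by at least 1 bp, beside 0.375% of all its autosomal peaks. It was chr4:189203674-189204083 in 4q35.2, with a fold of 5.83 and 7 fragments. The partner, chr4:189203925-189204272 of the second PC9 wild-type run, had a fold of 5.58 and 6 fragments, and the overlap was 159 bp. The only shared position therefore included cells without the tag. It was 1 of the 4 peaks of the second PC9 wild-type run here, where 15.9% of the autosomal peaks overlapped another run. Of the 117 peaks of the first PC9 wild-type run 0 overlapped any other run, beside 0.183% of its autosomal peaks. The same count was 0 of 4 in PC9 METTL7A, beside 3.57%, and 0 of 2 in the first PC9-OR METTL7A run, beside 3.12%. At a required overlap of 50% of the shorter peak the number was 0. With peaks widened by 1 kb on each side it was 2, beside 1.23% of the autosomal peaks of the METTL7A run and 1.74% of those of the first PC9 wild-type run. The added pair was chr4:184234313-184234644 of the METTL7A run and chr4:184233453-184233922 of the first PC9 wild-type run, in 4q35.1.

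The 13 peaks of the short runs lay mostly apart from those of the long ones. The second PC9 wild-type run had its highest fold on these chromosomes, 7.43 with 8 fragments, at chr18:8856982-8857346 in 18p11.22, 43.4 kb from a peak of the first wild-type run. Its others were chr13:28024506-28024830 in 13q12.2 (fold 5.97, 7 fragments) and chr4:35040062-35040368 in 4p15.1 (fold 4.96, 5 fragments), besides the shared one in 4q35.2. The PC9 METTL7A run had a peak in each of the crowded bands. One was chr13:111272143-111272381 in 13q34, with a fold of 5.77 and 6 fragments, 92.1 kb from a peak of the second PC9-OR METTL7A run. The other was chr18:77883152-77883408 in 18q23, with a fold of 5.19 and 5 fragments, 208 kb from such a peak and 12.2 kb from a peak of the first PC9 wild-type run. Nearness in 18q23 was therefore not limited to METTL7A runs. Its remaining peaks were chr4:62567310-62567552 in 4q13.1 (fold 6.08, 6 fragments) and chr4:177145628-177145929 in 4q34.2 (fold 5.04, 6 fragments).

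In PC9-OR wild type, which carries no tagged METTL7A, the 3 peaks of the first run each had 3 fragments. They were chr13:19522122-19522353 in 13q12.11, chr13:37981194-37981465 in 13q13.3 and chr4:90347011-90347268 in 4q22.1, with folds of 3.93, 3.87 and 3.93. The first lay 2.84 kb from chr13:19518638-19519279 of the second METTL7A run, which itself begins 0.0186 Mb beyond the centromere band of chromosome 13. The first PC9-OR METTL7A run had chr4:148933288-148933520 in 4q31.23 (fold 5.26) and chr4:157704756-157705035 in 4q32.1 (fold 5.37), each with 8 fragments. Its floor, 0.676 fragments, was the highest of all runs with at least 5 peaks, and its nearest peaks of the second METTL7A run were 150 kb and 1888 kb away.

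Some genes of interest for lung cancer and drug resistance lie on these chromosomes, and their bands are given as places only. The genes and their bands were taken from textbook knowledge after the peaks had been seen. A band holds many genes, and peaks are not assigned to a gene, exon, intron or promoter, for which an annotation on GRCh37 would be needed. Band 4p16.3, which carries FGFR3, a fibroblast growth factor receptor, and NSD2, a histone methyltransferase, held 9 peaks of the second PC9-OR METTL7A run and 0 of the first PC9 wild-type run. Band 4q12, which carries the receptor tyrosine kinases KIT and PDGFRA, held 1 and 3. Band 4q13.3, which carries the EGFR ligands AREG and EREG, held 2 and 2, and 4q25, which carries EGF, held 0 and 0. The bands of EGFR ligands were thus not among the fuller ones. On chromosome 13, the band of RB1 held 1 and 1, that of the repair gene BRCA2 (13q13.1) held 0 and 0, and that of the receptor tyrosine kinase FLT3 (13q12.2) held 0 and 0. The second PC9 wild-type run, however, held 1 peak in 13q12.2. Band 13q34, which carries the insulin receptor adaptor IRS2, held 26 and 5. On chromosome 18, the band of TYMS, a thymidylate synthase, and of the SRC family kinase YES1 (18p11.32) held 1 and 2. That of CDH2, or N-cadherin (18q12.1), held 1 and 0, that of the TGF-beta signal transducer SMAD4 (18q21.2) held 0 and 1, and that of the inhibitor of apoptosis BCL2 (18q21.33) held 1 and 1. Band 18q23, which carries the transcription factor NFATC1, held 29 and 1.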

How the data were processed

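MYC-tag ChIP-seq was done in 6 groups of PC9 and PC9-OR cells, with 2 immunoprecipitated libraries each. Per the submitters' processing notes the genome build was GRCh37, and the tools included MACS2 2.2.7.1, Bowtie2 2.4.2, bedtools 2.30 and SAMtools 1.16. How peaks were called, and against which control, is not stated in the sources used here. Read totals per library were not used.

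The 6 deposited lists have the narrowPeak layout. The authors' peak caller gave each peak a start and end, a score (not used), a fold as a ratio to local background, and −log10 values of the p-value and q-value, which served here only to describe, rank or filter peaks. The lowest deposited −log10 q was 1.31. Widths and counts were computed from the lists with 1-based coordinates. Fragments n and background b were recovered from fold = (n + 1)/(b + 1) and the Poisson upper tail of n at b, with a tolerance of 1 unit in the last deposited digit. All 6236 peaks were recovered and 0 had another solution. Tested on simulated data, the recovery found 500 of 500 true pairs and accepted 1 of 500 decoys. The true pairs were made with the same relations, so they test the inversion and not whether the relations hold for the deposited peaks. Bands came from the GRCh37 table of circlize 0.4.16.

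Runs with at least 20 autosomal peaks entered the density tests, and runs with at least 5 peaks on chromosomes 4, 13 and 18 entered the width and fragment tests. Tests were exact sign-flip or permutation tests over runs (NumPy 2.4.6, SciPy 1.17.1), with 0.5 added to counts of 0 in ratios and to all counts on the log2 scale. Named were every peak there of runs holding at most 5, the 5 highest folds per chromosome in the other runs (ties ordered by start, and for the first PC9 wild-type run only the leading ones printed), shared peaks, and the 3 fullest bands per chromosome. The widest peak and the peak with 11 fragments were added after their values were seen. The members, gene list and tests were chosen with earlier results of these data known. Alternatives tried were peaks merged within 10 kb, a minimum of 5 fragments or of 5 in −log10 q, centromere margins and bands, end distances, overlap rules and leaving out each run. Sequences are not given, for want of a genome of that build.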

Additional observations from a re-analysis of the deposited data

How the results depend on the processing

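Of the results recomputed under other settings, 77 kept their direction and, where tested, their side of the threshold, which no test over runs could pass. Another 9 moved, beyond the counting interval of 1 run or, for shared pairs, in number. None of these 9 has a spread between runs. Of the rest, 1 changed sign and 1 became 0. Some of the 77 changed in size. Among peaks with −log10 q at or above 5 the PC9-OR count difference of 4.60 became 1.58 and the PC9 difference of -2.35 became -0.79, and with at least 5 fragments the METTL7A against untagged difference of -0.85 became -0.11 and the chromosome 13 pair of -0.57 became -0.28. In the second PC9-OR METTL7A run the density ratio of 0.218 became 0.0617 at a −log10 q of at least 5, 0.287 with peaks within 10 kb merged, 0.177 without the outer 5 Mb and 0.273 without chromosomes 16, 20 and 22 among the other autosomes (the last 2 chosen after seeing the data), and stayed below 1 in each. Its share near chromosome ends of 45.5% was 58.3% for the outer 10 Mb, 30.1% for the outer 2 Mb and 25% among the 4 peaks with a −log10 q of at least 5. Shared pairs numbered 1, or 0 at 50% overlap and 2 with 1 kb of widening. The other end distances and overlap rules change what is counted, and the cause of the remaining moves was not tested. The PC9 difference of -2.35 turned to 1.58 among peaks with at least 5 fragments, which removes all first-run wild-type peaks.

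With each run left out in turn, the mean log2 density ratio ranged from -1.76 to -1.29, the chromosome 4 pair from -1.46 to -1.10, the chromosome 13 pair from -0.69 to -0.39 and the chromosome 18 pair from -1.24 to -0.68. The METTL7A against untagged difference ranged from -1.46 to -0.23, the PC9-OR count difference from 1.62 to 7.59 and the PC9 count difference from -4.71 to 0. At a −log10 q of at least 5 fewer than 2 runs kept 20 autosomal peaks, so the density tests over runs gave no value. The width and fragment ratios rest on 2 runs and have no value with 1 left out. No paired analysis was possible because most runs carry no replicate number and no compared groups share 2 numbers. Runs stand for replicates by inference, 2 runs supply nearly all peaks, and the first PC9 wild-type run rests on 2 to 4 fragments per summit.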
